A study of Mus musculus with 9 samples.

Results

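Ligation of the common bile duct stops bile from leaving the liver, and the bile acids and bilirubin that then build up in blood are filtered and secreted by the kidney. The kidney's proximal tubule, which runs from the glomerulus through early, middle and late parts (called S1, S2 and S3), takes back sugar, phosphate and amino acids from the filtrate and secretes organic anions, and it lives largely on the oxidation of fatty acids in mitochondria and peroxisomes. Injured tubule cells are known to give up these transport and oxidative programmes, to take on genes of the developing or migrating epithelium, and to signal to fibroblasts and macrophages around them.

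Kidney RNA of mice 3 weeks after common bile duct ligation (CBDL, arrays CBDL_164, CBDL_165 and CBDL_170) was compared with kidney RNA of mice 3 weeks after a sham operation (arrays sham_158, sham_159 and sham_160). These 6 arrays belong to a series of 9 whole-transcript arrays, whose other 3 come from mice fed norursodeoxycholic acid (norUDCA) for 5 days before 3 weeks of ligation and serve here only to estimate the spread of each gene. Each gene has 1 spread pooled over the 3 groups, so its standard error can understate a wider spread among the CBDL arrays. The groups were taken from the sample titles, and all 22180 genes with a row of their own on the array were described. The labels give no strain, sex, age, batch or number of animals per array, so p-values reflect the variation among these arrays alone, which may be technical. Values are log2 signals, on which a difference of 1 is 2-fold, and the array median of these signals lay between 5.7 and 5.79 on the 6 arrays. Differences are CBDL minus sham with their standard error (SE), SD is taken over the 3 arrays of each group, and a gene rose or fell where limma gave a Benjamini-Hochberg adjusted p under 0.05 over all genes. The arrays carried kidney RNA by their markers: Umod, which encodes the urinary protein uromodulin of the thick ascending limb, lay between 12.47 and 12.84 on the 6 arrays, and Slc34a1, the main phosphate transporter of the proximal tubule, between 12 and 13.35.

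Ligation moved about equal numbers of genes up and down. Of the 22180 genes, 4844 were called (21.8%), 2293 of them upward (10.3%) and 2551 downward (11.5%). The counts of lists and families below are to be read against these shares of all genes. At an unadjusted p under 0.05 limma gave 33.3% of genes. The arrays of the 2 groups did not overlap for 35.6% of genes, with all CBDL arrays above for 15.6% and all below for 20%. Of the called genes 98.9% had no overlap, so its absence in a called gene adds little to the call. Of the called genes, 1355 (6.11% of all genes) differed at least 2-fold, 686 upward (3.09%) and 669 downward (3.02%). At least 16-fold 9 genes fell and 4 rose, whereas from 8- to 16-fold 19 fell and 21 rose, and from 4- to 8-fold 110 fell and 112 rose. Brighter genes fell more often. With genes ranked by mean signal into 10 equal bins, 31.1% of the brightest bin fell and 14.2% rose, whereas rises were most frequent in the middle of the range, at 19.3% of the genes with a mean signal between 6.35 and 7.13. In the dimmest bin 2.4% were called. The median difference over all genes was -0.059 and the median SE was 0.14.

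**Figure D1:**
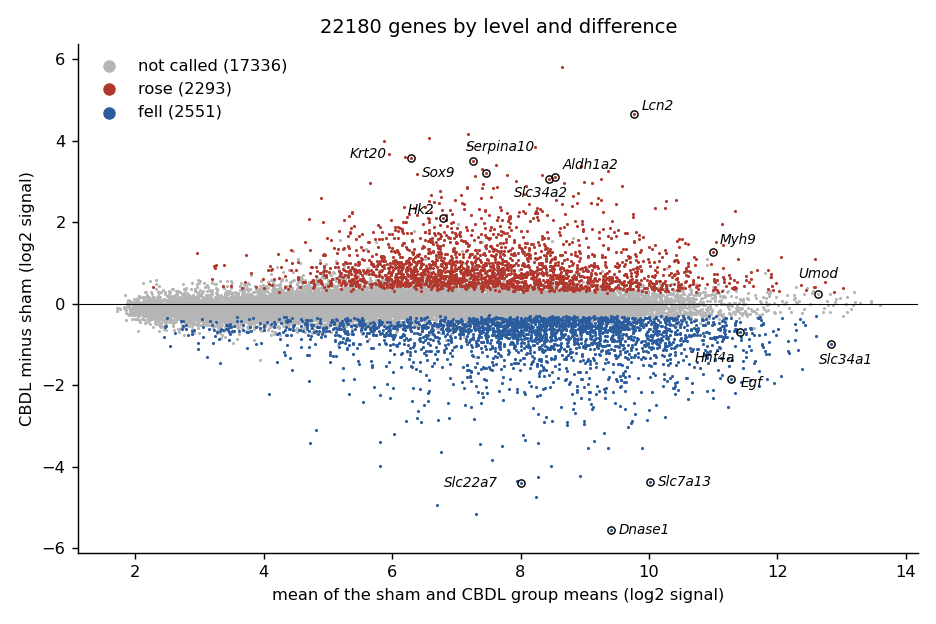
Difference between the CBDL and sham group means (vertical axis, log2 signal) against the mean of the 2 group means (horizontal axis, log2 signal) for 22180 genes, with rises in red (2293), decreases in blue (2551) and uncalled genes in grey (17336); circles mark genes named in the text. The decreases extend to the bright end of the range, where Slc34a1 and Hnf4a lie, and Dnase1 lies lowest of all.

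The genes with the largest or lowest-p increases included markers of tubular injury, a clotting inhibitor, a phosphate transporter and genes of the matrix. Lcn2, a secreted protein that captures siderophores and marks tubular damage, read 7.48, 7.79 and 7.03 on the sham arrays and 11.92, 12.44 and 11.90 on the CBDL arrays. Havcr1, the phosphatidylserine receptor of injured proximal tubule, read 5.64, 4.23 and 5.83 against 8.77, 8.66 and 9.95. For both genes every CBDL array lay above every sham array, and the differences were 4.65 (SE 0.20, adjusted p = 6.27e-06) for Lcn2 and 3.89 (SE 0.43, adjusted p = 0.000211) for Havcr1. Serpina10, an inhibitor of coagulation factors, read 5.46, 5.50 and 5.53 against 8.88, 9.18 and 8.96, an 11.4-fold rise (3.51, SE 0.15, adjusted p = 6.27e-06) with an SD of 0.04 over the sham arrays. Slc34a2, a phosphate transporter known mainly from lung and intestine, read 7.07, 7.06 and 6.61 against 9.95, 10.14 and 9.83 (3.06, SE 0.20, adjusted p = 2.52e-05). It rose while Slc34a1 and Slc34a3, the phosphate transporters of the kidney's own proximal tubule, fell by 0.99 and 2.82. Sulf1, which trims sulfate groups from heparan sulfate outside the cell, rose by 2.85 (SE 0.12, adjusted p = 6.27e-06). Gpc3, a cell surface proteoglycan of fetal tissues, rose by 3.27 (SE 0.22), and Tnc and Col12a1, matrix proteins of healing tissue, by 3.84 (SE 0.38) and 3.38 (SE 0.41). Hk2, a hexokinase that starts glycolysis, rose by 2.11 (SE 0.12), and Edn1, the vasoconstrictor endothelin-1, by 2.69 (SE 0.33).

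Several keratins and claudins rose, though as families both had many uncalled members. Krt20, a keratin of the gut and urothelium, read 4.16, 4.76 and 4.61 in sham and 7.99, 8.14 and 8.12 in CBDL, the sham values lying among the dimmest 33.3% of genes, which end at 5.2, where signal above background is not shown. Of 49 measured keratins 5 rose (10.2%, against 10.3% of all genes) and 3 fell (1 fell without CBDL_165). Those that rose were Krt20, Krt18 (2.34, SE 0.24), Krt19 (2.18, SE 0.24), Krt8 (1.38, SE 0.19) and Krt7 (1.30, SE 0.16). Claudins form the seals of tight junctions and set which ions pass between cells. Of 31 measured, 7 rose and 2 fell, and 1 fell without sham_159, CBDL_164, CBDL_165 or norUDCA_CBDL_172. Cldn4 read 7.37, 7.35 and 6.88 in sham and 9.87, 10.58 and 10.03 in CBDL, with no overlap (2.96, SE 0.23, adjusted p = 4.27e-05). Cldn3 rose by 1.63 (SE 0.21) and Cldn1 by 1.02 (SE 0.10), whereas Cldn10, which makes sodium-permeable pores, fell by 0.80 (SE 0.15). The promoter of Cldn4, 250 bases before to 50 after its annotated start in RefSeq (GRCm38.p6, chr5:134946885-134947184, minus strand), is shown because Cldn4 is the claudin with the largest rise and its promoter holds the AP-1 motif TGANTCA, searched on both strands, at 2 places, the farther 240 bases before the start (in capitals).
Cldn4: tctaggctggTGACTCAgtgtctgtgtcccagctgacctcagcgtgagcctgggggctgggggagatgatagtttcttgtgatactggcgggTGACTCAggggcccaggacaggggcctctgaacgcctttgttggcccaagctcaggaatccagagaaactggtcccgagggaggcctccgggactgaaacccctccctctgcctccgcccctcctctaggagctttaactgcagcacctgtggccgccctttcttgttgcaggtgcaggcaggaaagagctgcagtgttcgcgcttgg
Over all genes the share with this motif was 7.4% of 16918 promoters, and it was 8.8% of 510 promoters of genes that rose at least 2-fold and 7.9% of 534 promoters of genes that fell at least 2-fold. It was 4.1% of 5157 promoters of genes with a mean signal of at least 6 whose interval lay within 1.5-fold. The match in Cldn4 is a description of that promoter.

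**Figure D2:**
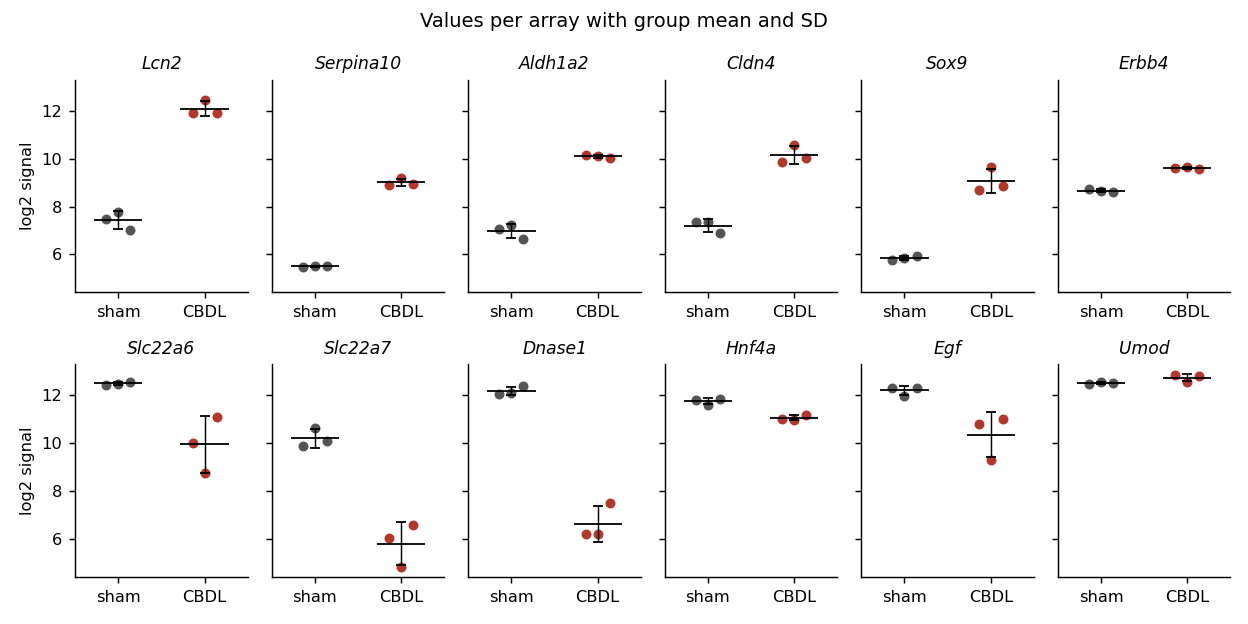
Log2 signal (vertical axis) of 12 genes on the 3 sham (grey) and 3 CBDL (red) arrays, with lines at the group mean and bars of 1 SD. Lcn2 to Erbb4 in the upper row lie higher in every CBDL array, Slc22a6 to Egf in the lower row lie lower, and Umod differed by 0.24 without passing the test.

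Most listed targets of YAP and genes of the actin cytoskeleton rose. YAP and its relative TAZ are co-activators that enter the nucleus when cells are stretched or lose contact and, with TEAD factors, switch on a known group of targets. Of 12 measured genes of this list 8 rose and 0 fell, with a median difference of 0.60. Ankrd1, a muscle ankyrin-repeat protein and a common reporter of YAP, read 6.28, 6.80 and 6.17 in sham and 9.18, 9.79 and 9.34 in CBDL, an 8.11-fold rise (3.02, SE 0.19, adjusted p = 2.35e-05). Ccn1 and Ccn2, secreted matricellular proteins, rose by 1.52 (SE 0.16) and 1.62 (SE 0.21), and Axl, a receptor tyrosine kinase, by 1.61 (SE 0.13). Yap1 itself differed by 0.13 without a call, while Wwtr1, which encodes TAZ, rose by 0.50 (adjusted p = 0.0235), and that call was lost under 5 of the 17 alternative settings, among them without sham_158, sham_159 or CBDL_165 (adjusted p of 0.0728, 0.0533 and 0.0646). Of 24 genes of the actin cytoskeleton 17 rose and 0 fell, with a median of 0.77. Myh9, the heavy chain of non-muscle myosin, rose by 1.27 (SE 0.11, adjusted p = 6.68e-05), and the actin cross-linkers Flna and Actn1 by 1.76 (SE 0.11) and 1.77 (SE 0.12). The tropomyosins Tpm1 and Tpm4 rose by 1.18 (SE 0.10) and 1.39 (SE 0.13), and Vim, an intermediate filament of mesenchymal and injured epithelial cells, by 1.58 (SE 0.20). Markers of fibroblasts and mural cells moved with these genes: 9 of 11 rose and 0 fell, and their mean signal lay between 7.98 and 8.47 on the sham arrays and between 9.13 and 9.26 on the CBDL arrays. Their part in the rise of the actin and YAP genes was not tested.

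Annexins, calcium-dependent proteins that bind membranes, rose in 8 of 11 cases and fell in 1, with a median of 0.97. Anxa3 rose by 2.45 (SE 0.25) and Anxa1, which dampens inflammation, by 2.24 (SE 0.16), while Anxa13, an annexin of the epithelial brush border, fell by 1.11 (SE 0.19). Laminins build basement membranes. Of 10 measured laminin chains 7 rose and 1 fell, with Lama5 at 1.04 (SE 0.14) and Lamc1 at 0.90 (SE 0.15), and Lama1, the chain of the tubular basement membrane laid down in development, fell by 0.93 (SE 0.15). Without sham_160 or without CBDL_165 the count of laminins that rose was 4. Of 30 integrins, the receptors by which cells hold on to matrix, 13 rose and 1 fell (2 fell without CBDL_164), with a median of 0.27.

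Of 34 growth factors and cytokines of the stroma 16 rose, 2 fell and 16 were not called, with a median of 0.40. All 3 transforming growth factors beta, which drive matrix production, rose: Tgfb1 by 1.45 (SE 0.09, adjusted p = 2.35e-05), Tgfb2 by 1.51 (SE 0.21) and Tgfb3 by 1.35 (SE 0.22). Tgfb1 had an SD of 0.07 in sham and 0.02 in CBDL. Clcf1, a cytokine of the interleukin-6 family, rose by 1.98 (SE 0.16), its relatives Lif by 1.29 (SE 0.15) and Il11 by 0.67 (SE 0.13), while Il6 differed by 0.27 and Osm by 0.11 without a call. Il34 and Csf1, the ligands of the macrophage receptor CSF1R, rose by 1.60 (SE 0.25) and 1.38 (SE 0.13). Pdgfb rose by 1.30 (SE 0.17) and Fgf2 by 1.09 (SE 0.09). The 2 that fell were Bmp7, an anti-fibrotic factor of tubule cells, by 0.83 (SE 0.11), and Fgf1, by 1.19 (SE 0.18).

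Of 13 ligands, receptors and related genes of the EGF system 4 rose, 1 fell and 8 were not called, with a median of 0.09. Egf, which the distal tubule makes in large amounts, read 12.32, 11.99 and 12.31 in sham and 10.79, 9.29 and 11.01 in CBDL, a 3.6-fold decrease (-1.85, SE 0.37, adjusted p = 0.00582), and all CBDL arrays lay below the sham arrays. Of the other ligands, Ereg rose by 0.82 (SE 0.14), and Hbegf and Nrg1 rose by 0.73 and 0.94, calls that hold in the fit of all arrays but not in each alternative: for Hbegf the adjusted p was 0.105 without sham_160, 0.0753 without CBDL_165 and 0.101 without CBDL_170, and for Nrg1 it was 0.0988 without both sham_159 and CBDL_165. Erbb4, a receptor for neuregulins and some EGF-like ligands, read 8.72, 8.66 and 8.62 against 9.63, 9.65 and 9.58 (0.95, SE 0.13, adjusted p = 0.000598). The receptors Egfr, Erbb2 and Erbb3 differed by 0.08, -0.08 and -0.02, and the 95% interval of each difference lay within 1.5-fold. Of 13 genes of the Notch pathway 3 rose, the ligand Jag1 by 0.88 (SE 0.19), the receptor Notch3 by 0.51 (SE 0.10) and the target Hes1 by 0.69 (SE 0.16), and 0 fell (1 fell without CBDL_170).

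Of 22 listed transcription factors 6 rose, 6 fell and 10 were not called. The list holds nephron factors and also Runx1, Cebpd and Bhlhe40, which are not particular to the nephron and are among the 6 that rose. Sox9, a factor of the embryonic nephron that returns in regenerating tubules, rose by 3.22 (from 5.85 ± 0.10 to 9.07 ± 0.52, SD, n = 3 each, adjusted p = 2.98e-05). Runx1 and Sox4, factors of blood and of developing epithelium, rose by 2.29 (SE 0.20) and 2.20 (SE 0.18). Hnf4a, a master regulator of proximal tubule genes, read 11.79, 11.61 and 11.85 in sham and 11.04, 10.99 and 11.18 in CBDL, a 1.61-fold decrease (-0.68, SE 0.11, adjusted p = 0.00144) without overlap. Its relative Hnf4g fell by 1.13 (SE 0.24, adjusted p = 0.00849), Esrra, which drives mitochondrial genes, by 0.65 (SE 0.11), and Lhx1, a factor of nephron formation, by 0.81 (SE 0.10). Pax2 and Pax8, which mark renal epithelium, differed by 0.09 and 0.39 without a call. Of 17 Kruppel-like factors 7 rose and 2 fell, led by Klf5 at 1.83 (SE 0.14) and Klf6 at 1.74 (SE 0.13), with Klf15, a factor of podocytes and metabolism, at -0.79 (adjusted p = 0.0148), a call lost under 4 of the 17 settings, among them without sham_159 or without CBDL_164 (adjusted p of 0.0533 and 0.0592). The HOXB genes, which lie side by side and pattern the embryo, rose in 6 of 10 cases with 0 decreases and a median of 0.60, for example Hoxb6 at 0.80 (SE 0.14) and Hoxb5 at 0.78 (SE 0.14). Of 9 HOXA genes 0 rose and 1 fell, of 9 HOXC genes 1 rose and 1 fell, and of 9 HOXD genes 2 rose and 0 fell.

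Of 12 Toll-like receptors 9 rose and 1 fell, with a median of 1.14. Tlr13, a sensor of bacterial ribosomal RNA, rose by 2.62 (SE 0.18, adjusted p = 2.98e-05), Tlr2, which reads bacterial lipopeptides, by 1.23 (SE 0.16) and Tlr4, the endotoxin receptor, by 1.19 (SE 0.24). The member that fell was Tlr12, by 0.98 (adjusted p = 0.0154), a call lost without sham_160 (adjusted p = 0.0587), while 2 members fell without sham_158 or without CBDL_164. Among the interleukin-1 and interleukin-18 receptor genes and their neighbour Slc9a4, 5 genes rose that follow each other in the order of tested genes. Genes without a tested row were skipped in this order, so others may lie between. Il1r1 rose by 1.46 (SE 0.12) and Il1rl2, the receptor for interleukin-36, by 1.91 (SE 0.13). Il18r1 rose by 1.40 (SE 0.21), Il18rap by 1.60 (SE 0.23) and the sodium-proton exchanger gene Slc9a4 by 0.59 (SE 0.14). Complement genes rose in 8 of 15 cases and fell in 1 (2 without CBDL_170), with a median of 1.16. C7, a component of the membrane attack complex, rose by 2.13 (SE 0.17), while C8a, another component, fell by 2.81 (SE 0.34). C8g, a further chain of C8, also fell at least 2-fold, so the list of 15 leaves out at least 1 complement gene that fell. All 11 measured macrophage markers rose with these lists, with a mean signal between 6.67 and 7.09 on the sham arrays and between 8.54 and 9.40 on the CBDL arrays. Mrc1, the mannose receptor, rose by 3.16 (SE 0.27) and Adgre1, which encodes F4/80, by 1.82 (SE 0.17). The part of macrophages in the rise of the receptor and complement genes was not tested. Of 9 lymphocyte markers 0 rose and 1 fell, and of 10 neutrophil markers 4 rose, a count that was 1 without sham_160 or without CBDL_165 and 2 without sham_158 or without sham_159.

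Genes of all 3 parts of the proximal tubule fell. Of 10 early (S1) genes 9 fell with a median of -1.07, of 8 middle (S2) genes 7 fell with a median of -1.14, and of 12 late (S3) genes 12 fell with a median of -1.70; 0 genes of the 3 lists rose. In whole-kidney RNA fewer cells of a type and less RNA per cell cannot be told apart. Slc22a7, an organic anion transporter of the late tubule, read 9.90, 10.64 and 10.09 in sham and 6.03, 4.82 and 6.58 in CBDL, a 21.1-fold decrease (-4.40, SE 0.44, adjusted p = 0.000123). Slc7a13, an amino acid carrier of the same part, read 12.04, 12.29 and 12.27 against 7.79, 5.96 and 9.75, a decrease on each array with a CBDL SD of 1.89. Slc5a2, the glucose transporter of the early tubule, fell by 1.91 (SE 0.27) and Slc34a1 from a mean of 13.34 to 12.34, with no overlap. The exception in the middle part was Slc13a1, a sulfate transporter, which differed by 0.42 without a call and was called a rise without CBDL_165. Dnase1, the secreted deoxyribonuclease made by kidney tubules, had the largest decrease of all, from 12.07, 12.10 and 12.38 to 6.21, 6.20 and 7.49, or 46.7-fold (-5.55, SE 0.32, adjusted p = 1.84e-05).

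Of 360 solute carriers 127 fell (35.3%, against 11.5% of all genes) and 44 rose (12.2%, against 10.3%). In the SLC22 family of organic ion transporters 17 of 24 fell and 1 rose (2 rose without sham_160 or without CBDL_164), with a median of -1.66. Slc22a12, the urate exchanger, fell by 2.11 (SE 0.18). Slc22a6 and Slc22a8 encode the basolateral organic anion transporters OAT1 and OAT3, which take up drugs and other organic anions from blood. Slc22a6 read 12.45, 12.49 and 12.57 in sham and 10.03, 8.74 and 11.10 in CBDL (-2.55, SE 0.45, adjusted p = 0.00282), and Slc22a8 read 12.45, 12.28 and 12.46 against 10.76, 9.18 and 11.48 (-1.93, SE 0.44, adjusted p = 0.0116). Both were lowest on CBDL_165 and highest of the CBDL arrays on CBDL_170. They close a run of 5 genes of this family that all fell, Slc22a28, Slc22a29, Slc22a30, Slc22a8 and Slc22a6, with a median of -2.55. The run follows the order of tested genes, and genes without a tested row were skipped. The 5 genes are close relatives, and whether their probes also read one another was not tested. The sodium-glucose family SLC5 had 8 of 11 fall and the monocarboxylate family SLC16 9 of 13, with 0 rises in either. In the SLC7 family of amino acid carriers, in contrast, 5 of 16 rose and 3 fell, and Slc7a5, which carries large neutral amino acids into growing cells, read 7.04, 6.96 and 6.52 against 8.53, 8.71 and 8.57 (1.76, SE 0.15, adjusted p = 6.68e-05).

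Promoters of the fallen genes were searched for the letters AGTCCA, a part of the motif bound by the HNF4 factors, on both strands and from 250 bases before to 50 after each start in RefSeq (GRCm38.p6). These letters were held by 110 of 534 promoters of genes that fell at least 2-fold (20.6%), against 2294 of 16918 over all genes (13.6%), 79 of 510 for genes that rose at least 2-fold (15.5%) and 584 of 5157 for genes with a mean signal of at least 6 whose interval lay within 1.5-fold (11.3%). The difference between these shares was not tested. The AP-1 motif had a share of 7.9% in the fallen genes and 7.4% over all genes. A further 5 motifs of other factors were searched in the same promoters. Each of the 5 had a lower share in the fallen genes than over all genes, the NF-kB share of the fallen genes resting on 1 promoter. These differences were not tested either. In the fallen genes and over all genes the shares were 0.2% and 0.4% for the NF-kB motif, 4.3% and 6.1% for the E2F motif TTCCCGC, 15.2% and 15.8% for the CHR motif TTTGAA, 37.6% and 38.4% for the CCAAT box and 2.6% and 3.4% for the IRF motif. In the risen genes they were 1.2%, 5.3%, 14.1%, 34.7% and 4.5% in the same order. The median GC content of these promoters was 55.3% for the fallen genes, 56.3% over all genes, 58.3% for the risen and 61.7% for the bounded genes, and its part in the shares was not tested. Related genes share promoter sequence, so promoters are not independent, and a match of these letters is not a measured binding site.

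Most listed genes of the tricarboxylic acid cycle, the peroxisome and complex I fell. Of 19 genes of the tricarboxylic acid cycle and its entry enzymes 17 fell and 0 rose, with a median of -0.60. Suclg1, a subunit of the succinate-forming ligase, fell by 1.08 (SE 0.13) and Sdhc, a subunit of succinate dehydrogenase, by 0.96 (SE 0.16), while Cs, citrate synthase, differed by -0.23 without a call. Of 21 peroxisomal enzymes 19 fell and 0 rose, with a median of -0.89. Amacr and Acox2, which process branched-chain fatty acids and the side chain of bile acids, fell by 2.62 (SE 0.26) and 2.44 (SE 0.19), and Cat, catalase, by 0.89 (SE 0.17). All 10 acyl-CoA dehydrogenases fell, with a median of -0.96, among them Acads by 1.15 (SE 0.11), Acad11 by 1.13 (SE 0.17) and Acad8, of valine breakdown, by 1.02 (SE 0.14). Of 32 subunits of complex I 27 fell and 0 rose, with a median of -0.53 and Ndufs1 lowest at -0.97 (SE 0.14). Of 17 cytochrome c oxidase subunits 6 fell (3 without CBDL_164 or without CBDL_165), 0 rose and 11 were not called, with a median of -0.29. Without both sham_159 and CBDL_165 the dehydrogenases that fell were 6 and the complex I subunits 17.

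Families of detoxifying enzymes differed in how many members fell. Of 11 UDP-glycosyltransferases with Ugt symbols 7 fell and 0 rose, and of 14 aldo-keto reductases 8 fell and 1 rose. The Ugt genes that fell include Ugt3a1, Ugt3a2 and Ugt8a, which are not glucuronosyltransferases. Of 98 cytochrome P450 enzymes 21 fell (21.4%) and 9 rose (9.2%), and of 21 glutathione S-transferases 5 fell (23.8%) and 4 rose (19.0%). Of 21 sulfotransferases 3 fell (14.3%) and 2 rose (9.5%), near the 11.5% and 10.3% of all genes. These counts leaned on single arrays: 5 P450 enzymes rose without sham_160, 1 to 3 glutathione S-transferases fell without any one array but CBDL_170 (1 without CBDL_164), and 1 sulfotransferase fell without sham_158, sham_159 or CBDL_165. Of 21 aldehyde dehydrogenases 11 fell and 3 rose, among the latter Aldh18a1, of proline synthesis, by 1.04. Aldh1a2, the enzyme that makes retinoic acid in the embryo, read 7.08, 7.21 and 6.65 in sham and 10.14, 10.13 and 10.04 in CBDL, an 8.7-fold rise (3.12, SE 0.14, adjusted p = 6.9e-06) with the CBDL arrays within 0.05 (SD) of each other. Aldh1a1, another retinal dehydrogenase, rose by 1.11 (SE 0.16), and Stra6, the receptor that takes up retinol, by 1.24 (SE 0.15). Lrat, which stores retinol as ester, fell by 0.71 (SE 0.15), and Bco2, which cleaves carotenoids, read 7.87, 8.20 and 8.23 against 5.39, 5.63 and 5.95 (-2.45, SE 0.15, adjusted p = 2.35e-05). The retinoic acid degrading enzymes Cyp26a1 and Cyp26b1 differed by -0.14 and 0.58 without a call. Of 18 listed retinoid genes 4 rose and 2 fell, the latter being Lrat and Rdh16 (-0.835, SE 0.19). The list does not hold Bco2, nor Rdh5 and Retsat, which also fell at least 2-fold, so it leaves out retinoid genes that fell.

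Creatine, taurine, glutathione and acid-base genes mostly fell where they were called. Gatm and Gamt, which make creatine, fell by 1.74 (SE 0.26) and 1.5 (SE 0.18), and Csad, which makes taurine, by 2.16 (SE 0.20). Arg2, the mitochondrial arginase, rose by 2.29 (SE 0.20), and Smox, an oxidase of spermine, by 0.83 (SE 0.13). In glutathione metabolism the synthetase Gss fell by 1.25 (SE 0.15) and Gclm, a subunit of the ligase of the first step, by 0.81 (SE 0.18), whereas Gclc, the catalytic subunit of that ligase, differed by -0.14 and Gsr, the reductase, by -0.01 without a call. Of 19 glutathione genes 9 fell and 2 rose, and the decreases were 5 without sham_158, without sham_159 or without CBDL_165. Of 16 genes of ammonia and acid-base handling 11 fell and 0 rose, a count that was 6 without sham_158 and 5 without sham_160. Car4, a carbonic anhydrase of the brush border, fell by 1.83 (SE 0.25), and Pck1, which turns glutamine carbon into glucose, by 1.63 (SE 0.35, adjusted p = 0.00824).

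Of 19 genes of lipid droplets and lipoproteins 6 rose and 3 fell, and of 16 eicosanoid genes 5 rose and 1 fell (2 fell without CBDL_164 or without CBDL_170). Apoe, an apolipoprotein made by macrophages and tubules, rose by 2.07 (SE 0.14, adjusted p = 2.98e-05) with an SD of 0.02 in sham, and Plin4, a lipid droplet coat, by 1.37 (SE 0.15), while the fatty acid uptake receptor Cd36 fell by 1.39 (SE 0.24). Cidec, which fuses lipid droplets in fat cells, rose by 3.13 (SE 0.69, adjusted p = 0.00937) with an SD of 1.13 in CBDL. Of 7 fat cell markers 3 rose, Cidec, Adipoq and Retn (the call of Retn was lost under 7 settings), and the mean of this list lay between 5.7 and 6.62 in sham and between 6.76 and 8.10 in CBDL; the part of fat cells in the rise of Cidec was not tested. Ptgs2, the inducible cyclooxygenase, rose by 1.72 (SE 0.23), Pla2g4a, which frees arachidonic acid, by 1.21 (SE 0.15) and Alox5ap, the partner of 5-lipoxygenase, by 1.43 (SE 0.18). Ephx2, which breaks down epoxides of arachidonic acid, fell by 2.01 (SE 0.19).

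Of 17 endocrine genes of the kidney 6 fell, 2 rose and 9 were not called. Kl, which encodes the FGF23 co-receptor klotho, fell by 1.22 (SE 0.16, adjusted p = 0.000547), Pth1r, the parathyroid hormone receptor, by 0.88 (SE 0.15), and Calb1, a calcium buffer of the distal tubule, by 0.84 (SE 0.13). Cyp24a1, which inactivates vitamin D, rose by 1.65 (SE 0.39, adjusted p = 0.0128), whereas Cyp27b1, which activates it, differed by 0.43 and Epo by -0.30 without a call.

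**Figure D3:**
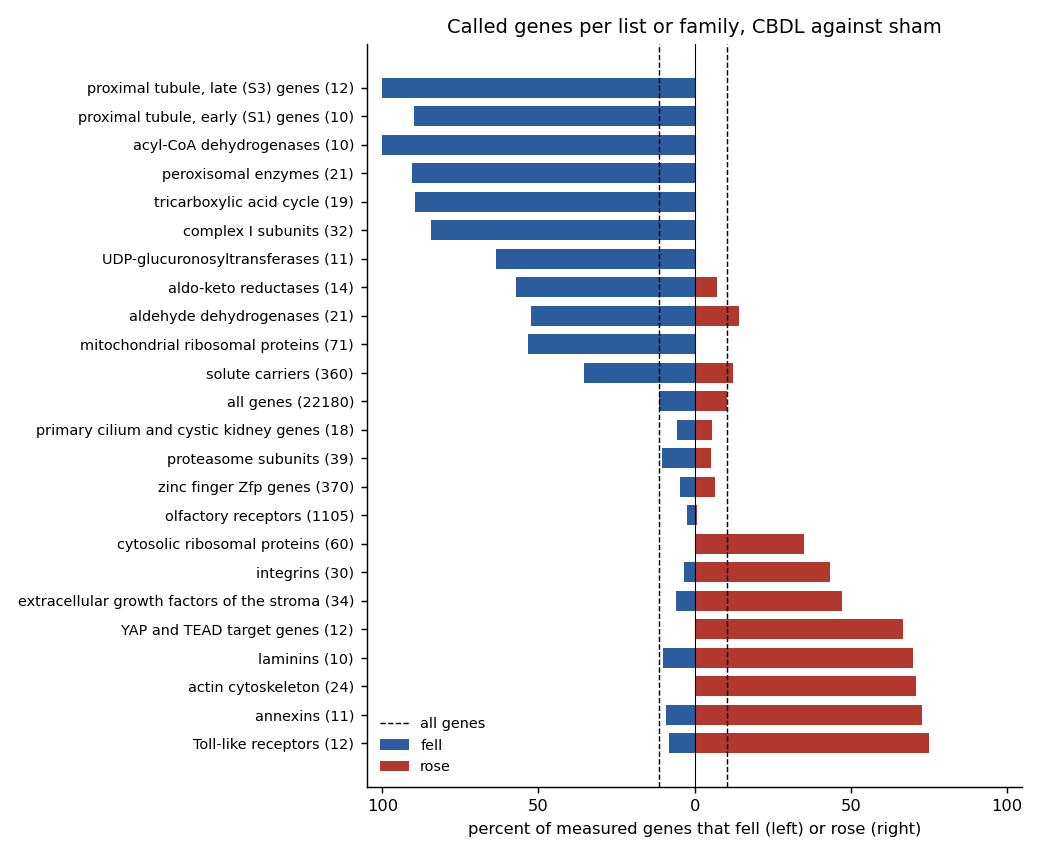
Percent of measured genes that fell (blue, left) or rose (red, right) in CBDL for 23 lists and families and for all genes, with the number measured in brackets and dashed lines at the percentages of all genes (11.5% and 10.3%). The S3 list and the acyl-CoA dehydrogenases fell in full, and the Toll-like receptors and annexins had the highest shares of rises. The bar named UDP-glucuronosyltransferases holds the genes with Ugt symbols, not all of which are glucuronosyltransferases.

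The 2 sets of ribosomal proteins of the cell moved in opposite directions. Of 60 proteins of the cytosolic ribosome 21 rose and 0 fell, with a median of 0.31, and of 71 proteins of the mitochondrial ribosome 38 fell and 0 rose, with a median of -0.41, while the median over all genes was -0.059. Rps6, a protein of the small cytosolic subunit, read 11.74, 11.76 and 11.67 in sham and 12.29, 12.23 and 12.19 in CBDL (0.52, SE 0.09, adjusted p = 0.00184), and Mrps35, of the small mitochondrial subunit, read 7.60, 7.90 and 7.72 against 7.10, 7.24 and 7.06 (-0.60, SE 0.11, adjusted p = 0.00342). In neither case did the groups overlap. Small nucleolar RNAs (snoRNAs), which guide the chemical modification of ribosomal RNA and lie mostly in introns of other genes, shifted upward by a small amount: 69 of 73 lay above zero, 20 rose and 0 fell, and the median was 0.36. The count of snoRNAs that rose was 6 without sham_160, 7 without CBDL_165, 9 without sham_158 and 11 without CBDL_164. It was 12 without norUDCA_CBDL_172, 13 without norUDCA_CBDL_179 and 9 with the 6 CBDL and sham arrays alone. The median of the snoRNAs stayed between 0.21 and 0.46 over all settings tried. For the mitochondrial ribosome the decreases were 23 without sham_159 and 22 without CBDL_164, and the medians of both ribosomal sets kept their sign under quantile normalization. Ribosomal protein genes have many near-identical processed copies in the genome, and whether the probes also read those was not tested.

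**Figure D4:**
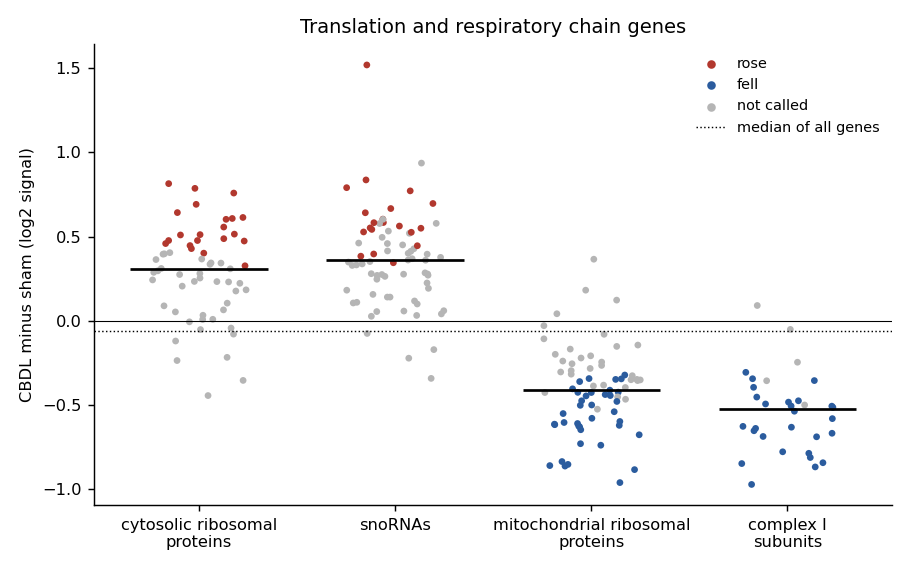
Difference CBDL minus sham (vertical axis, log2 signal) of each measured cytosolic ribosomal protein (60), snoRNA (73), mitochondrial ribosomal protein (71) and complex I subunit (32), red where the gene rose, blue where it fell and grey where it was not called; black lines are medians (0.31, 0.36, -0.41 and -0.53) and the dotted line is the median of all genes.

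Precursors of microRNAs, which silence messenger RNAs through bases 2 to 8 of the mature strand (the seed), had 20 of 478 risen and 14 fallen (7.1% called), with a median signal of 4.58. The rises were 13 without sham_158, sham_160 or CBDL_165, and the decreases 9 without norUDCA_CBDL_179. With the 6 CBDL and sham arrays alone 10 rose and 8 fell. Those with a mean above 5 in both groups that kept their call under all 17 alternative settings were Mirlet7e, Mir23a, Mir342, Mir365-2 and Mir1931 (a rise of 0.67), a choice made after their values were seen. Mature strands of 4 of them in RefSeq (GRCm38.p6) are shown with the seed in capitals, and the array does not tell the mature strand from its precursor.
let-7e-5p (chr17:17830366-17830387): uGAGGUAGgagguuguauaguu
miR-23a-3p (chr8:84208563-84208583): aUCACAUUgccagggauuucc
miR-342-3p (chr12:108658680-108658702): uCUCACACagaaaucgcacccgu
miR-365-3p (chr11:79726467-79726488): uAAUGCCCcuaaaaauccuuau
Mirlet7e, of a family that restrains growth and is high in differentiated cells, read 6.05, 6.46 and 5.75 in sham and 7.37, 7.41 and 7.28 in CBDL (1.27, SE 0.16, adjusted p = 0.000391). The let-7 family shares the seed of let-7e, yet of 11 measured let-7 precursors only Mirlet7e and Mirlet7i rose, and Mirlet7i (0.78, adjusted p = 0.0248) lost its call without sham_158, without sham_160, without CBDL_165 or without CBDL_170 (adjusted p of 0.0586, 0.0814, 0.0888 and 0.063). Mir23a rose from 5.81, 5.93 and 5.67 to 6.75, 6.91 and 6.66 (0.97, SE 0.13, adjusted p = 0.000722). Mir27a, which lies close to Mir23a on chr8, rose by 0.89 (adjusted p = 0.0102) but is not among those that kept their call under all settings. Mir23b, the relative of Mir23a in another cluster, differed by 0.12 without a call. Mir342 rose by 0.60 (SE 0.12, adjusted p = 0.00478). Its sham mean of 5.19 lies near 5.2, where the dimmest 33.3% of genes end and below which signal above background is not shown. Mir365-2 fell from 6.68, 6.49 and 6.42 to 5.27, 5.00 and 5.91 (-1.14, SE 0.20, adjusted p = 0.00241), and the groups did not overlap for Mirlet7e, Mir23a, Mir342 or Mir365-2.

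A majority of genes read close to sham, dim genes included. For 12506 genes (56.4%) the 95% interval of the difference lay within 1.5-fold, and 5013 (22.6%) were neither called nor bounded in this way, so that neither a change nor closeness to sham was shown for them at the thresholds used. The bounded genes include 183 that were called. They also include 1324, 1404 and 1380 genes of the 3 dimmest of the 10 bins of mean signal, where signal above background is not shown. Bright genes bounded in this way included Itm2b, a membrane protein gene, at 11.92, 11.95 and 11.92 in sham and 11.95, 11.96 and 11.95 in CBDL, the lysosomal membrane protein gene Lamp1 (-0.04, SE 0.08), the kidney cadherin gene Cdh16 (-0.12, SE 0.08) and the protease gene Furin (-0.13, SE 0.08). Ctsb, a lysosomal protease, was bounded and called at once, with a rise of 0.35 (SE 0.08, adjusted p = 0.0121). Of 18 genes of the primary cilium 15 were bounded, 1 rose and 1 fell, and of 39 proteasome subunits 34 were bounded. Beyond the proximal tubule, thick ascending limb and distal tubule markers had a median of -0.21, with 3 of 8 fallen and 5 bounded, collecting duct markers -0.33, with 3 of 10 fallen (1 without any one of the 3 sham arrays), podocyte markers 0.07, with 2 of 6 fallen (1 without any one of the 6 arrays but CBDL_170), and endothelium markers 0.01, with 1 of 10 fallen (4 without CBDL_170). The endothelial gene that fell was Kdr, the main receptor for VEGF, by 0.90 (SE 0.13, adjusted p = 0.000872). The olfactory receptors, which kidney cells largely do not make and which have a mean signal among the dimmest 33.3% of genes in 1038 of 1105 cases, had 3.1% called, with 9 rises and 25 decreases. The decreases were 40 without sham_160, 14 without sham_159 and 13 without CBDL_164.

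The 3 CBDL arrays were not equally far from sham. Of the 669 genes that fell at least 2-fold, CBDL_165 was the lowest of the CBDL arrays in 494 (73.8%) and CBDL_170 the highest in 578 (86.4%), and the median difference from the sham mean was -1.44 on CBDL_164, -1.67 on CBDL_165 and -1.08 on CBDL_170. Of the 686 genes that rose at least 2-fold, CBDL_165 was the highest in 451 (65.7%) and CBDL_170 the lowest in 420 (61.2%), with medians of 1.42, 1.64 and 1.26 in the same order. The median SD over the CBDL arrays was 0.36 for the fallen genes and over the sham arrays 0.15, while over all genes it was 0.15 in both groups. Among all genes sham_159 was the highest of the sham arrays in 56.9%. Slc7a13, Slc22a6 and Mep1b, a brush border protease (7.03, 4.54 and 7.88 on the CBDL arrays), were lowest on CBDL_165 and highest on CBDL_170, whereas Hnf4a had an SD of 0.10 and Erbb4 of 0.03 over the CBDL arrays.

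**Figure D5:**
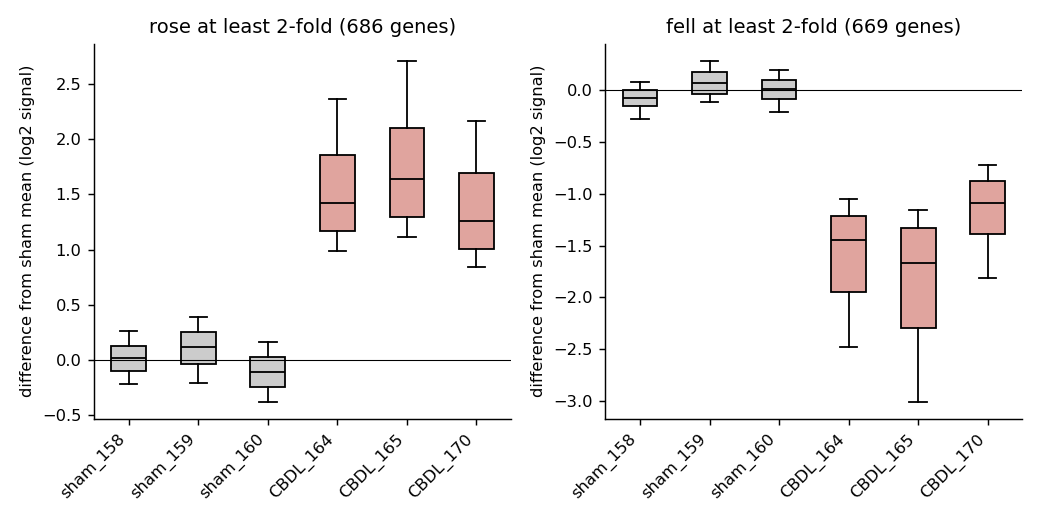
Difference from the sham mean (vertical axis, log2 signal) on each of the 6 arrays (horizontal axis) for the 686 genes that rose at least 2-fold (left) and the 669 that fell at least 2-fold (right), with boxes from the 25th to the 75th percentile, a line at the median and whiskers from the 10th to the 90th percentile of genes. CBDL_165 lies farthest from sham and CBDL_170 nearest in both panels; sham arrays are grey and CBDL arrays red.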

How the data were processed

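Per the labels' protocols, TRIzol was used for kidney RNA, and Affymetrix WT PLUS reagents for its labelling. The authors' deposited values are log2 signals made with RMA in Partek 6.6, per the submitters' processing notes. The array model, the genome build and other steps are not given in the sources used here, and RMA makes arrays alike in their distribution, so a shift common to all genes cannot be seen. Of 41345 rows, 23521 carry 1 gene symbol in the platform annotation, 1814 carry several and 16010 none. The brightest single-symbol row by mean over the 9 arrays stood for each of 22180 genes.

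limma 3.58.1 in R 4.3.3 fitted 1 mean per group over all 9 arrays (lmFit, eBayes, 6 residual and 3.77 prior degrees of freedom). Adjusted p is two-sided, with Benjamini-Hochberg adjustment over 22180 genes and a threshold of 0.05. A gene was called bounded where the 95% interval of its difference lay within 1.5-fold. With 3 arrays a group, their number limits the precision. On simulated data the fit recovered 41% of genes changed 1.5-fold and 94% of those changed 2-fold, with 6.9% of calls false. The simulation changed 100 genes at each size among 22180, with independent noise of equal spread in all groups. In the data 21.8% of genes were called, and fallen genes had a median SD of 0.36 in CBDL and 0.15 in sham. These rates therefore do not carry over to the data. Lists were described by counts and medians only.

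Genes named were those with the largest or lowest-p changes, up to 6 per list and 5 per family by p, fixed markers and the bright bounded genes with the narrowest intervals. Those named for a large change had to be called, with a mean signal of at least 6 in both groups and no overlap of the CBDL and sham arrays. Other named genes, the microRNAs, snoRNAs, neighbouring runs, solute carrier and HOX subfamilies, printed promoter and the motif background with a mean of at least 6 were chosen after values were seen. The comparison and its lists were chosen with earlier results of these data known. The alternatives were an intensity trend, array weights, no moderation, the 6 arrays alone, no dim genes, the mean of a gene's rows, quantile normalization, and leaving out arrays. A further promoter motif that was searched is not reported here.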

Additional observations from a re-analysis of the deposited data

Results flagged for a closer look

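Rows outside the gene-level comparison also carried differences between CBDL and sham, with limma fitted over all 41345 rows. Of 1814 rows that carry several gene symbols, 66 were called and differed at least 2-fold, for example the row of Acsm3 and Eri2 (11.48 in sham and 7.85 in CBDL, -3.63, SE 0.43, adjusted p = 0.00132) and the row of Car14 and Aph1a (9.88 and 7.42, -2.47, SE 0.34, adjusted p = 0.00257). Which of the genes sharing a row differed cannot be told from it. Of 16010 rows with no symbol, 275 were called and differed at least 2-fold, and these are unnamed here.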

How the results depend on the processing

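Over 17 alternative settings 3657 to 5386 genes were called and 1180 to 1600 of them differed at least 2-fold, and the genes bounded within 1.5-fold were 8066 when the dimmest 33.3% of genes were left out, since fewer genes were then tested. Without 1 array at a time 3794 to 4604 genes were called. With the 6 CBDL and sham arrays alone 3712 were called, 1316 of them at least 2-fold. Of the 4844 called genes, 2784 (57.5%) were called under all settings and 3146 (64.9%) without each single array. The share of rises among called genes was 47.3%, 43.6% without sham_160 and 53.8% without sham_159. Of 531 genes followed one by one 480 were called, 59 of these lost the call under at least 1 setting, 29 others gained one, 0 called genes reversed and 20 sign changes concerned genes without a call. Under quantile normalization the median of all genes was -0.015. Genes without signal above background limit what dim genes can show. No paired analysis was possible because the CBDL and sham arrays share no replicate numbers.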
